A study of Rattus norvegicus with 3 samples.

Results

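The genes described here encode the proteins that join neighbouring cells: claudins, occludin, zonula occludens scaffolds and junctional adhesion molecule A of the tight junction, cadherins and catenins of the adherens junction, the proteins of the desmosome, and the connexins of gap junctions. They were taken by gene symbol from the annotation of the array, without regard to their values, and Cdh5 was left out. Of 14218 genes with a single symbol, 65 belonged to the set, carried by 93 of 31099 probe sets. Where a gene had several probe sets, the one with the highest 3-array mean stands for it.

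Tissue came from a rat model of kidney donation after cardiac death. Left kidneys of male Wistar rats of 370 to 508 g had 20 min of warm ischaemia, then 17 ± 0.7 h in cold University of Wisconsin solution, and were perfused from the femoral artery of a living recipient for 5 h 43 min ± 21 min (the labels do not say what kind of error these are). Heparin recipients received 100 U/ml/h of heparin, a glycosaminoglycan anticoagulant. Peptide recipients received 0.5 mg/ml of peptide 2, which is built on the region of the chemokine CCL5 that binds heparin. Control recipients received normal saline at 1 ml/h. The labels describe an infusion in one place and a bolus in another. Each group had 7 recipients, and RNA of the 3 kidneys with the best RNA per group was pooled for 1 Affymetrix array. Because each group is a single array, nothing measures the spread between kidneys. No p-value or error can be given, and the number of arrays limits the precision. All values are GCRMA log2 expression values as deposited. A gene is called measured where it reads at or above the array median (4.14 to 4.16) on both arrays compared.

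Tight junctions seal the space between epithelial cells, and claudins set which ions pass through it. In the nephron the claudins differ by segment, so that each segment has its own paracellular permeability. Adherens junctions and desmosomes hold cells together through cadherins that are anchored to actin by catenins or to keratin by desmoplakin. Connexins form channels that connect the cytoplasm of neighbouring cells.

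On all 3 arrays 37 of the 65 genes were measured, and the other 28 lay below the median on all 3. In the measured set, most claudins read lower with heparin than with saline, and 2 connexins made by vessel walls and other cells, Gja4 and Gja1, read higher by more than 0.4 on the log2 scale. Cldn1 and Cldn6 read lower by more than 0.4 with either treatment, against the same saline array. These sizes hold for the probe set used for each gene. The mean of all probe sets gave -0.36 for Cldn1 with peptide and 0.16 for Gja1 with heparin. None of the differences of the measured genes reached 2-fold. In a bulk kidney sample, fewer cells of a type and less RNA per cell cannot be told apart.

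**Figure D1:**
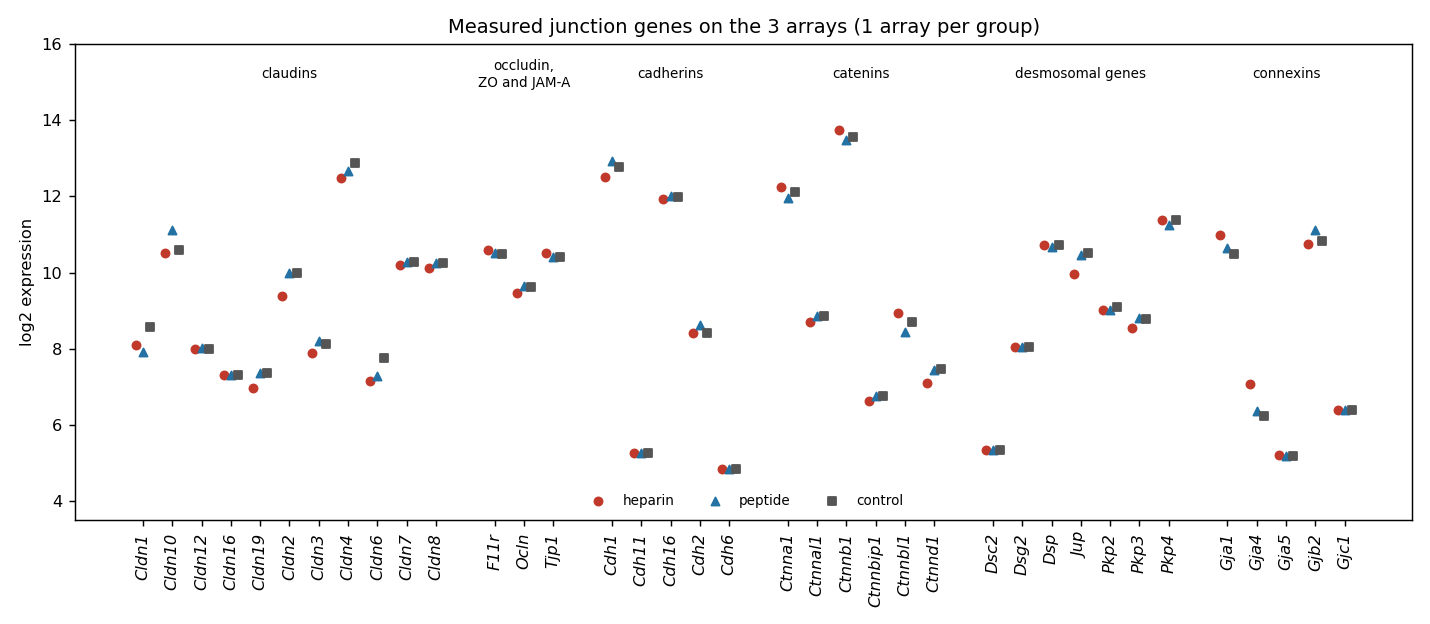
Log2 expression (y axis) of the 37 measured junction genes (x axis, by family) on the heparin, peptide and control arrays, 1 point per array. The 3 points of most genes nearly coincide, and among the wider gaps are those of Cldn1, Cldn2, Cldn6, Cldn10, Jup, Gja1 and Gja4.

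Genes were chosen for their sequence after their values were seen, on the probe set used for each. They were the claudins lower by more than 0.4 with both treatments, Cldn1 and Cldn6. Also chosen were the connexins higher by more than 0.4 with heparin, Gja4 and Gja1. To set the sequence beside the values, the 250 bases before their annotated transcription starts are shown. They come from RefSeq (GRCr8 build): chr11:87926126-87926375 on the plus strand for Cldn1, chr10:13215558-13215807 on the plus strand for Cldn6, chr5:144920325-144920574 on the minus strand for Gja4 and chr20:36302314-36302563 on the plus strand for Gja1. Capitals mark matches to 4 motifs on either strand. The first is CAGGTG, an E-box read by repressors of the Snail and Zeb families. The second is GGGCGG, the core of an Sp1 site. The third is TGANTCA, an AP-1 site. The last is TATAAA, which positions polymerase at some starts. In these sequences no match overlaps another.
Cldn1: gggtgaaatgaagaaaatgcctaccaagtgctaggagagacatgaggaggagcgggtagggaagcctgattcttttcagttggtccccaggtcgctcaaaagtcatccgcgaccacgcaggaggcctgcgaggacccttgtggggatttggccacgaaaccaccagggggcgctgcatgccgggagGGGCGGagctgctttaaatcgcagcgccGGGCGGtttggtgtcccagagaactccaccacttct
Cldn6: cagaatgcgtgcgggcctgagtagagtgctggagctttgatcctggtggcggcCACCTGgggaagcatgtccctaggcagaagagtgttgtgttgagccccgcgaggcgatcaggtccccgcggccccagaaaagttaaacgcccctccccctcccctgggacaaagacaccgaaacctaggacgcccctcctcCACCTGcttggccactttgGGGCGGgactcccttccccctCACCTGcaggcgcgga
Gja4: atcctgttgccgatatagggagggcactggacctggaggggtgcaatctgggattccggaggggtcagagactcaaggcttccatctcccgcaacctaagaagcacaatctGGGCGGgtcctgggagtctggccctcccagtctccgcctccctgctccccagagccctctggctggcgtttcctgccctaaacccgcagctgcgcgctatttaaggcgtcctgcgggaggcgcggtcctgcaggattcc
Gja1: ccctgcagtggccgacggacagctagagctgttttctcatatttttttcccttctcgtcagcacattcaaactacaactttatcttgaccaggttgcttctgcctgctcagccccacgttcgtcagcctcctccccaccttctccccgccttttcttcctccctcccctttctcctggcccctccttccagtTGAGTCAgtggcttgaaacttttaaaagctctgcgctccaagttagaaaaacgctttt

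Cldn6 held 3 copies of the E-box, with first bases 197, 56 and 16 bases before the start, and Cldn1 held none. Of 33469 starts in the RefSeq table, 15.9% held the E-box, 30.5% GGGCGG, 6.34% TGANTCA and 12.9% TATAAA in the same window. Sequence was at hand for 50 of the 65 genes and for 27 of the 37 measured ones. Among these 27 the E-box was present in 10, GGGCGG in 17, TGANTCA in 3 and TATAAA in 2. The 33469 starts were not limited to genes measured here, so these counts and those shares are not like for like. Of 9 measured claudins with a sequence, 3 held the E-box (Cldn3, Cldn6 and Cldn7). Cldn7 held 4 copies and Cldn3 1. Cldn6 read lower with heparin by 0.61 on the log2 scale, Cldn3 by 0.25 and Cldn7 by 0.08, so the gene with the most copies differed least. Among the claudins without the E-box, the differences with heparin were -0.47 for Cldn1, -0.39 for Cldn19, -0.15 for Cldn8 and -0.08 for Cldn10. Cldn12 and Cldn16 were identical to control. A relation between copies and values was not tested. A match describes these letters only and shows neither binding nor its absence.

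The first comparison set the heparin pool against the saline pool. Of the 37 measured junction genes, 0 reached 2-fold in the positive and 0 in the negative direction, where 1.06% and 0.747% of all 9236 measured genes did. At 1.5-fold, 1 gene was higher (2.70% of the members) and 2 were lower (5.41%), beside 3.04% and 3.37% of all measured genes. These shares are near those of all genes. The median difference was -0.04, against 0.00 over all measured genes. Of the 37, 9 read higher, 22 lower and 6 identical, so 59.5% were lower, beside 44.2% of all measured genes. The split depends on scaling: 19 were higher and 18 lower with each array centred on its median over expressed probe sets, and 17 and 20 after quantile normalization. Of all measured genes, 65.3% read higher and 34.7% lower after centring, beside 51.4% and 48.6% of the members. After quantile normalization 60.5% of all measured genes read higher and 39.3% lower, beside 45.9% and 54.1% of the members.

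Claudins gave the most uniform picture in this comparison. Of 11 measured claudins, 9 read lower with heparin than with saline, 0 higher and 2 identical, with a median of -0.25. That is 81.8% lower, beside 44.2% of all measured genes. The 9 also read lower after centring and after quantile normalization, where 34.7% and 39.3% of all measured genes did. Some of the 9 were then close to 0, with Cldn10 at -0.02 in both. The 2 identical ones then read slightly higher, by at most 0.06. These counts describe 2 pools and were not tested.

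Cldn2 forms the cation and water pore of the proximal tubule. It read 9.38 with heparin, 9.98 with peptide and 9.98 with saline. The heparin array alone was low, by 0.60 on the log2 scale (1.51-fold) against control, a difference reached in that direction by 3.2% of all measured genes. Proximal tubule markers did not share this direction as a list, with a median of 0.03 over 7 measured genes, though the glucose transporter Slc5a2 read 9.12 with heparin, 9.59 with peptide and 9.64 with saline. Their part in the Cldn2 value was not tested.

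Cldn6, a claudin best known from embryonic epithelium, read 7.15 with heparin, 7.28 with peptide and 7.77 with saline. Both treated arrays lay below the control array. The difference was -0.61 (1.53-fold lower) for heparin and -0.48 for peptide. Cldn1, which in the kidney marks the parietal cells of Bowman's capsule, read 8.10 with heparin, 7.92 with peptide and 8.57 with saline. Again both treated arrays were lower, by 0.47 with heparin and by 0.65 (1.57-fold) with peptide. For each gene both differences use the same 1 saline array, so they are not independent.

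Cldn1 has 3 measured probe sets, which bear on the same transcript. The second read 5.09 with heparin, 5.80 with peptide and 5.96 with saline. The third read 5.10 with heparin, 5.16 with peptide and 5.42 with saline. All 3 were lower with either treatment than with saline, by 0.31 to 0.88 for heparin and by 0.17 to 0.65 for peptide, but they did not give the same size.

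In the thick ascending limb, Cldn16 and Cldn19 are needed for the uptake of magnesium and calcium between cells, and a form of Cldn10 carries sodium. Cldn16 read exactly 7.30 on all 3 arrays. Cldn19 read 6.97 with heparin, 7.36 with peptide and 7.36 with saline, a difference of -0.39 for heparin. Cldn10 read 10.52 with heparin, 11.13 with peptide and 10.60 with saline, so that the peptide array was the high one, by 0.53 against control. Markers of the thick ascending limb had a median of -0.10 with heparin and 0.00 with peptide over 5 measured genes. The sodium, potassium and chloride cotransporter Slc12a1 read 12.41 with heparin, 12.52 with peptide and 12.52 with saline. Other members of that list differed more: the potassium channel Kcnj1 read 9.76 with heparin, 9.37 with peptide and 10.02 with saline. The prostaglandin receptor Ptger3 read 10.19 with heparin, 9.02 with peptide and 9.56 with saline. The part of these genes in the Cldn10 and Cldn19 values was not tested. Which form of Cldn10 its probe set reads was not tested either, so its value is not tied to this segment.

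Several claudins belong to the distal nephron and the collecting duct. Cldn4, which with Cldn8 forms a chloride pathway there, read 12.49 with heparin, 12.68 with peptide and 12.87 with saline, a difference of -0.37 for heparin and -0.19 for peptide. Cldn3 read 7.89 with heparin, 8.21 with peptide and 8.14 with saline. Cldn8 read 10.11 with heparin, 10.26 with peptide and 10.26 with saline. Cldn7 read 10.20, 10.29 and 10.28 on the heparin, peptide and control arrays. In all 4 the heparin array was the lowest, by 0.08 to 0.37 against control. Markers of the distal convoluted and connecting tubule were lower with heparin in 4 of 4 measured genes, with a median of -1.28. Among them Calb1 read 9.18 with heparin, 10.79 with peptide and 11.01 with saline. Collecting duct markers had a median of 0.07 with heparin over 8, with 4 higher and 2 lower. They went both ways: Scnn1a differed by -0.50 and Slc26a4 by 0.47 with heparin. Whether either list has a part in the claudin values was not tested.

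Cldn12, the remaining measured claudin, read 8.001 with heparin, 8.010 with peptide and 8.001 with saline. Among the proteins that accompany claudins, occludin (Ocln) spans the membrane at the junction, Tjp1 encodes a zonula occludens scaffold that ties the strands to actin, and F11r encodes junctional adhesion molecule A. Ocln read 9.47 with heparin, 9.64 with peptide and 9.63 with saline. Tjp1 read 10.51, 10.41 and 10.40 on the same arrays, and F11r 10.59, 10.52 and 10.49. The heparin array was thus lowest for Ocln (-0.16) and highest for Tjp1 (0.11) and F11r (0.10). All 3 were within 0.03 of control with peptide, a size whose sign turned for each of them in at least 1 of the scalings tried. A second measured probe set of Tjp1 read 5.70 with heparin, 5.31 with peptide and 5.31 with saline, a larger difference of 0.39 for heparin. The second of Ocln read 6.17 on every array.

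**Figure D2:**
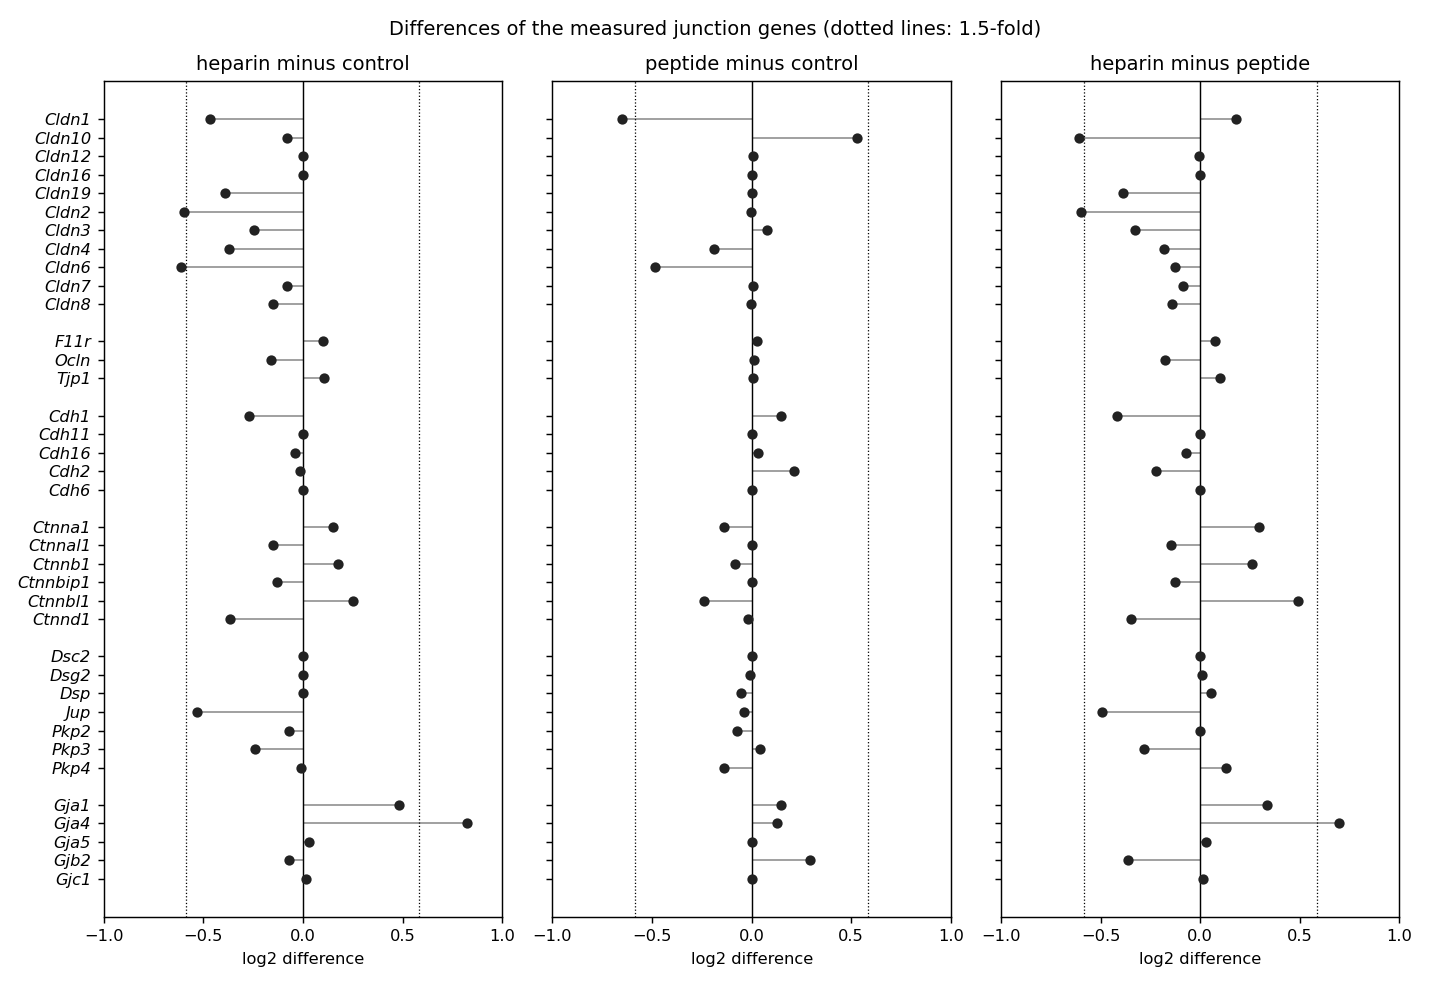
Log2 differences (x axis) of the 37 measured junction genes (y axis, by family) for heparin minus control, peptide minus control and heparin minus peptide, 1 array per group, with dotted lines at 1.5-fold. Only Gja4, Cldn1, Cldn2, Cldn6 and Cldn10 pass a dotted line in any panel, and 9 of 11 claudins lie left of 0 in the heparin minus control panel.

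Cadherins carry the adhesion itself. Cdh1, E-cadherin of tubules beyond the proximal part, read 12.51 with heparin, 12.93 with peptide and 12.78 with saline, a difference of -0.27 for heparin and 0.15 for peptide. Its other probe set lay at 2.18 on every array, and averaging the pair gave -0.14 for heparin. Cdh16, the kidney-specific cadherin, read 11.94, 12.01 and 11.98 on the heparin, peptide and control arrays. Cdh2, N-cadherin, which in rodents is found in the proximal tubule, read 8.41 with heparin, 8.64 with peptide and 8.43 with saline. A second probe set of it read 6.93 with heparin, 7.38 with peptide and 7.07 with saline, so peptide was the highest of the 3 arrays on both. Cdh6 (4.84) and Cdh11 (5.27), a cadherin of mesenchymal cells, read the same on every array. As a family the cadherins had 3 lower (60%), 0 higher and 2 identical with heparin, beside 44.2% lower and 25.8% higher among all measured genes. Once arrays were centred 4 of 5 read higher, beside 65.3% of all measured genes, so no direction holds for the family.

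Catenins link the cadherin tails to actin, and Ctnnb1 (beta-catenin) also carries the Wnt signal to the nucleus. Ctnnb1 read 13.74 with heparin, 13.48 with peptide and 13.56 with saline. Its other measured probe sets differed from control by 0.18 and -0.27 with heparin and by 0.03 and 0.00 with peptide, so the probe sets did not give one direction. Ctnna1, alpha-catenin, read 12.26 with heparin, 11.96 with peptide and 12.10 with saline. Ctnnd1, the delta-catenin that stabilises cadherins at the membrane, read 7.10 with heparin, 7.45 with peptide and 7.47 with saline, which put the heparin array lower by 0.37.

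Genes that share the catenin name but have other roles were also in the set. Ctnnbl1, which encodes a protein of the spliceosome, read 8.94 with heparin, 8.45 with peptide and 8.69 with saline. Control lay between the treated arrays, 0.25 below heparin and 0.24 above peptide. Ctnnal1, a relative of alpha-catenin, read 8.70 with heparin, 8.85 with peptide and 8.85 with saline. Ctnnbip1, an inhibitor of the binding of beta-catenin to its DNA-binding partners, read 6.63 with heparin, 6.76 with peptide and 6.76 with saline. A second measured probe set of Ctnnbip1 read 6.17 on every array.

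Desmosomes gave small differences apart from plakoglobin. Jup, plakoglobin, which lies in both desmosomes and adherens junctions, read 9.97 with heparin, 10.47 with peptide and 10.50 with saline. The heparin array alone was low, by 0.53, and 4.4% of all measured genes were at least that much lower. Dsp, desmoplakin, which ties the plaque to keratin, read 10.72 with heparin, 10.67 with peptide and 10.72 with saline. Dsg2 and Dsc2, the desmosomal cadherins of simple epithelia, read 8.05 to 8.06 and 5.35 on the 3 arrays.

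Plakophilins bind the desmosomal cadherins from inside. Pkp3 read 8.53 with heparin, 8.81 with peptide and 8.77 with saline. Pkp2 read 9.03 with heparin, 9.03 with peptide and 9.10 with saline. Pkp4 read 11.37 with heparin, 11.24 with peptide and 11.38 with saline. Its second probe set read 7.56 with heparin, 7.996 with peptide and 8.12 with saline, a difference of -0.56 for heparin beside -0.01 on the first, so the 2 probe sets gave very different sizes. Over the 7 measured desmosomal genes 5 read lower (71.4%) and 0 higher with heparin, beside 44.2% and 25.8% of all measured genes. After centring 3 read lower and 4 higher, beside 34.7% and 65.3% of all measured genes.

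Connexins held the largest positive difference of the 37 measured genes. Gja4, a connexin of arterial endothelium, read 7.07 with heparin, 6.37 with peptide and 6.25 with saline. The heparin array stood apart, by 0.82 against control (1.77-fold), and 1.6% of all measured genes were at least that much higher. Gja1, the most widespread connexin, read 10.97 with heparin, 10.64 with peptide and 10.49 with saline, a difference of 0.48 for heparin. Its other 2 probe sets lay below the median on all 3 arrays, at 2.18 and 2.32, with no difference, and averaging all 3 gave 0.16 for heparin.

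Gja5, a connexin of endothelium and renin cells, read 5.22 with heparin, 5.19 with peptide and 5.19 with saline, so its difference was far smaller than that of Gja4. Gjc1, a connexin of smooth muscle, read 6.40 with heparin, 6.39 with peptide and 6.39 with saline. Gjb2, an epithelial connexin, read 10.76 with heparin, 11.12 with peptide and 10.83 with saline, so the peptide array was the high one. Endothelial markers had a median of 0.18 with heparin and 0.00 with peptide over 7 measured genes. With heparin 4 of them read higher and 1 lower, the VEGF receptor Flt1 at 8.58 with heparin, 8.02 with peptide and 8.02 with saline, and Pecam1 at 8.65 on every array. Markers of smooth muscle, mesangium and fibroblasts had a median of 0.28 with heparin over 8 measured genes. Their part in the Gja4 and Gja1 values was not tested.

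The second comparison set the peptide pool against the same saline array that served for heparin. Among 37 measured junction genes, 0 reached 2-fold upward and 0 downward, beside 0.723% and 0.119% of all 9268 measured genes. At 1.5-fold, 0 were higher and 1, Cldn1, was lower (2.70% of the members), beside 2.11% and 0.917% of all measured genes. A count of 1 is the smallest above 0, so these shares do not set the members apart from all genes. The median difference was 0.00, with 14 genes higher, 14 lower and 9 identical. After centring of the arrays 10 were higher and 27 lower, as were 29.3% and 70.7% of all measured genes.

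With peptide the claudins were split, with 4 higher, 5 lower and 2 identical. Cldn1 (-0.65), Cldn6 (-0.48) and Cldn4 (-0.19) had the lowest values and Cldn10 (0.53) the highest. Only 0.6% of all measured genes were lower by as much as Cldn1, a share that rests on its brightest probe set, and the mean of its probe sets gave -0.36. The other measured claudins lay within 0.08 of control. Outside the claudins the differences ran from -0.24 (Ctnnbl1) to 0.29 (Gjb2). None of the 5 connexins read lower than control with peptide, beside 28.5% of all measured genes. The 2 identical ones, Gja5 and Gjc1, read lower after centring.

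**Figure D3:**
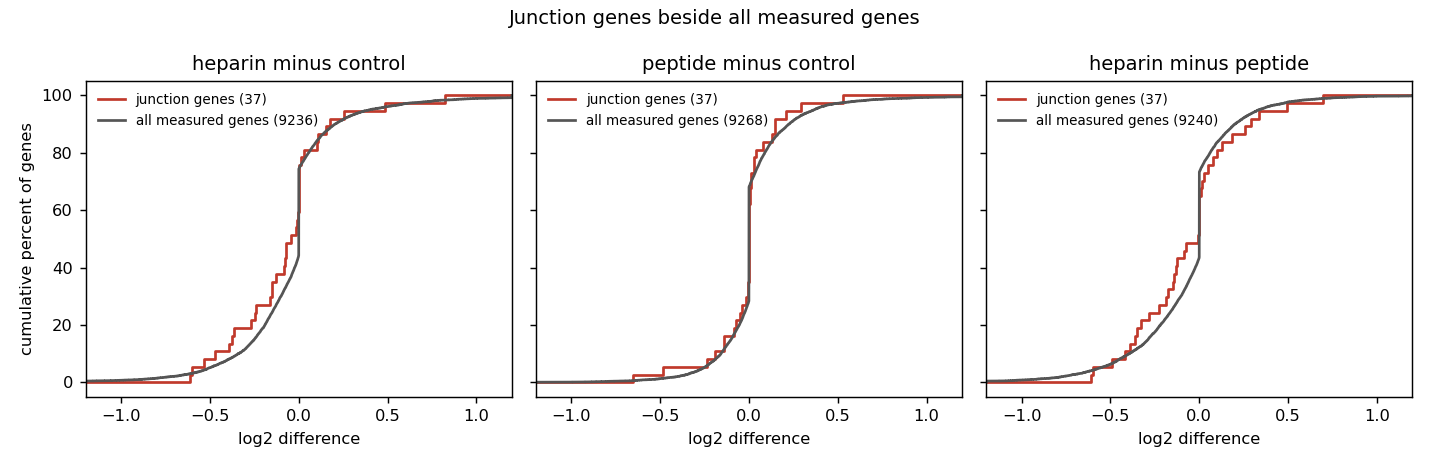
Cumulative percent of genes (y axis) by log2 difference (x axis, drawn from -1.2 to 1.2) for the 37 junction genes and for all measured genes in each comparison of 2 arrays. The lines run close together, with the steep step at 0 made by genes of identical value, and on the negative side of the heparin panels the junction genes lie mostly above the line of all genes.

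Heparin and peptide were then set against each other. At 2-fold, 0 of 37 junction genes were higher and 0 lower in heparin, beside 0.281% and 0.844% of all 9240 measured genes. At 1.5-fold, 1 gene, Gja4, was higher in heparin and 2, Cldn10 and Cldn2, were lower, beside 1.62% and 4.57% of all measured genes. Gja4 was higher by 0.70 in heparin, and 1.1% of measured genes were at least that much higher. Cldn10 was lower by 0.61 (1.52-fold) and Cldn2 by 0.60. Of the 37 genes, 13 read higher in heparin, 20 lower and 4 identical, beside 26.8% higher and 43.7% lower among all measured genes. After centring 20 read higher and 17 lower, beside 67.2% and 32.8% of all measured genes.

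Other members whose values lay furthest apart between the treatments were Jup (-0.49 for heparin minus peptide), Ctnnbl1 (0.49), Cdh1 (-0.42), Cldn19 (-0.39) and Gjb2 (-0.36). For Cldn10 and Gjb2 the peptide array was the one away from control, and for Cldn2, Jup and Cldn19 the heparin array was. Cdh1 and Ctnnbl1 had control between the treatments, and averaging the probe sets of Cdh1 gave -0.21. Of 11 claudins 9 read lower in heparin than in peptide, 1 higher and 1 identical, beside 43.7% lower among all measured genes. After centring 8 read lower, beside 32.8% of all measured genes. The one higher, Cldn1 at 0.18, depends on the probe set, since its other probe sets gave -0.71 and -0.06.

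**Figure D4:**
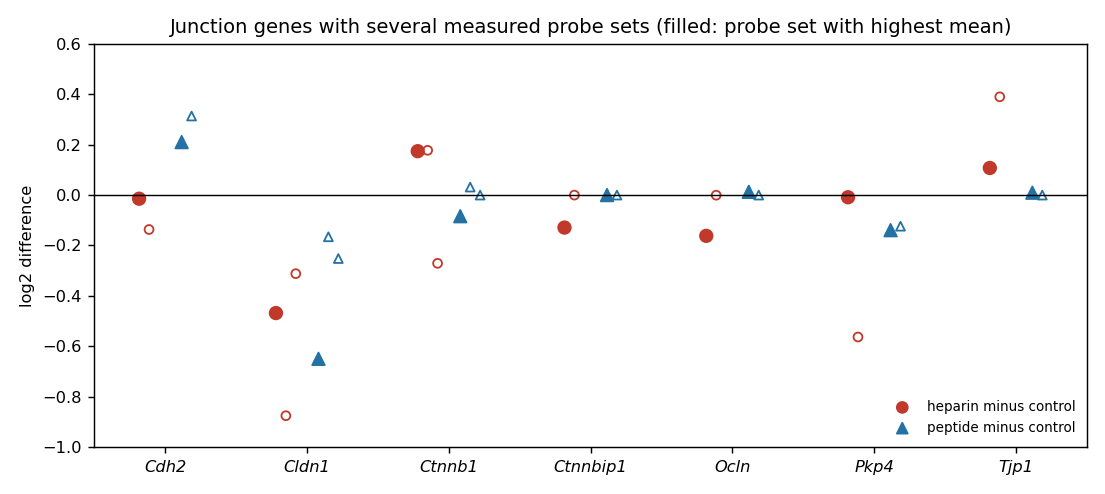
Log2 differences (y axis) for each measured probe set of the 7 junction genes with more than 1 measured probe set (x axis), for heparin minus control and peptide minus control. Filled symbols are the probe sets used for the gene. All 3 of Cldn1 lie below 0 in both comparisons, whereas those of Ctnnb1 lie on both sides with heparin.

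Agreement between probe sets could be looked at for few genes. More than 1 probe set was present for 18 of the 65 genes and more than 1 was measured for 7. The remaining 19 unselected probe sets lay below the median on all arrays. Some values were identical between arrays: 3 of the 37 measured members (8.11%) had the same value on all 3 arrays, beside 22.4% of all genes measured on all 3, and 9 (24.3%) had the same value with peptide and saline, beside 39.5%. An identical value can come from the summarisation of probes and does not show equal abundance.

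Of the 28 genes below the median everywhere, 18 lay within 0.01 of the lowest value of the arrays, 2.18, on all 3. They include Cldn14, a claudin that opposes Cldn16 and Cldn19, Cldn22, Tjp3, Cdh3, Cdh8, Ctnna2, Ctnnd2 and Dsg1, a desmosomal cadherin of skin. By family, 5 of 16 claudins, 1 of 4 genes of the occludin group, 11 of 16 cadherins, 2 of 8 catenins, 3 of 10 desmosomal genes and 6 of 11 connexins were below the median. For these genes a value says only that no level above the median was read.

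The other 10 had some signal under the median. Cldn5, the claudin of endothelium, read 3.95 on all 3 arrays. Cldn11 read 3.78 with heparin, 4.07 with peptide and 4.07 with saline. Gjb1, a connexin of liver and proximal tubule, read 3.37 with heparin, 3.51 with peptide and 3.51 with saline. Cdh13, a cadherin without a cytoplasmic tail, read 3.77 with heparin, 3.28 with peptide and 2.90 with saline. Cdh7 read 3.46 with heparin and 2.18 on the peptide and control arrays. The heparin array was the high one for Cdh7 and Cdh13, at values where no difference was counted.

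Genes that work beside these proteins were looked at through lists drawn from textbook knowledge. Of 28 other tight junction and polarity genes on the array 26 were measured, 5 higher and 12 lower with heparin, 5 higher and 10 lower with peptide, and 0 at 1.5-fold in either. Between the treatments Jam2, a junctional adhesion molecule of endothelium, read 8.27 with heparin and 7.51 with peptide. Lsr, which marks junctions where 3 cells meet, read 8.99 with heparin and 9.71 with peptide. Epcam, which binds claudins, read 14.58 with heparin, 14.58 with peptide and 14.60 with saline. Cgnl1, a relative of cingulin, read 11.72 with heparin, 11.64 with peptide and 11.72 with saline.

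Among nectins and plaque proteins of the adherens junction, 1 gene was at least 1.5-fold lower with both treatments. Vcl, vinculin, which joins alpha-catenin to actin under tension, read 10.27 with heparin, 10.46 with peptide and 11.17 with saline. Both treated arrays were lower than control, by 0.90 and 0.70, and both differences use the same saline array. Lima1, an actin-binding partner of alpha-catenin, read 10.14 with heparin, 9.63 with peptide and 9.52 with saline. The actin crosslinker Actn1 read 11.39 with heparin, 11.07 with peptide and 11.21 with saline. Afdn, afadin, which binds nectins, read 10.84 with heparin, 10.89 with peptide and 10.96 with saline. Of 13 measured genes in the list, 4 read higher and 8 lower with heparin, with 1 in each direction at 1.5-fold. With peptide 5 read higher and 6 lower, with 0 higher and 1 lower at 1.5-fold.

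Desmosome envelope, hemidesmosome and keratin genes had 0 of 11 measured members at 1.5-fold in any comparison. Itga6, an integrin of hemidesmosomes, read 13.00 with heparin, 13.00 with peptide and 13.02 with saline. Krt8, a keratin of simple epithelia, read 11.52 with heparin, 11.82 with peptide and 12.09 with saline, and Krt18, its partner, 10.71, 10.75 and 11.07 on the same arrays. Pannexins and connexin partners had 0 of 4 measured genes at 1.5-fold. The kinase Prkcd read 8.64 with heparin, 8.62 with peptide and 8.40 with saline, and the kinase Src 7.35, 7.61 and 7.61 on the same arrays.

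Among repressors and proteases that act on E-cadherin, 7 of 11 genes on the array were measured. With heparin 4 read higher and 1 lower, and with peptide 0 higher and 4 lower. Ctsb, a cathepsin, read 14.18 with heparin, 14.11 with peptide and 14.11 with saline. Zeb2 read 8.41 with heparin, 8.38 with peptide and 8.41 with saline. Zeb1, like it a repressor that binds E-boxes, read 8.36 with heparin, 7.88 with peptide and 7.90 with saline. Snai1 read 4.79 on every array. The stromelysin Mmp3 read 5.51 with heparin, 7.36 with peptide and 7.47 with saline, the only member of these related lists at 2-fold. Of 7 measured Wnt and beta-catenin genes, the transcription factor Tcf7l2 read 8.61 with heparin, 8.35 with peptide and 7.92 with saline. Ccnd1 read 9.70 with heparin, 10.54 with peptide and 10.15 with saline, and Myc 11.04, 11.67 and 11.53 on the same arrays, so heparin was lowest for both. Across that list 2 read higher and 3 lower with heparin, and 4 higher and 0 lower with peptide.

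Markers described the tissue as kidney: Umod of the thick ascending limb read 15.02 with heparin, 14.88 with peptide and 14.85 with saline, while 0 of 6 urothelial markers were measured. Podocyte markers read higher with heparin in 5 of 5 measured genes, with a median of 0.52, and lower with peptide in 5 of 5, with a median of -0.19. Red cell and platelet markers read lower in 5 of 5 measured genes with heparin (median -0.94) and with peptide (-0.34), against the same saline array. Leukocyte markers had a median of 0.00 in both over 6 genes. The single measured muscle marker, Myh1, read 14.48 with heparin, 12.17 with peptide and 13.04 with saline. The other 7 lay below the median, among them Myh4, Ckm and Tnnt3 at 2.18 on every array. Whether the Myh1 probe set reads a muscle transcript was not tested. Control probe sets at the 3' and 5' ends of a transcript bear on RNA quality, and a wider gap is usually read as less intact RNA. For beta-actin the 3' end read higher by 2.95 on the heparin array, 2.34 on the peptide array and 2.33 on the control array. The same gap was 0.32, 0.37 and 0.36 for GAPDH and 2.18, 2.28 and 2.18 for hexokinase, on the heparin, peptide and control arrays in that order. The part of any of these in the values of the junction genes was not tested.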

How the data were processed

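Each array is 1 column of log2 values as deposited, a value for every probe set. The authors made them with GCRMA, per the submitters' processing notes, which give no version here. How arrays were scaled to one another is not given. Per the labels' protocols, each array held equimolar RNA of 3 kidneys, labelled with biotin from 6 µg. The values were used as deposited. The platform annotation gave 20832 of 31099 probe sets a single symbol, 436 several and 9831 none, and only the first kind was named. Log2 values were subtracted with Python 3.11.15 and pandas 2.3.3. Genes at or above the array median on both arrays were counted at 2-fold and 1.5-fold. The same was done for all genes. No test was possible with 1 array per group. The 2-fold count was checked on simulated data, with changes well past 2-fold planted in genes far above the median. That check does not bear on the counts at 1.5-fold or on identical values. Related gene lists and markers were matched by symbol or synonym. The members, lists and thresholds were chosen with earlier results of these data known. All 65 members could be named, and genes of the related lists were named at 1.5-fold or as the 2 highest means of a list. Krt18, Zeb1, Snai1 and the markers named were chosen after their values were seen. Alternatives were other filters at the 40th and 60th percentile or none, other probe set choices, 2 scalings and 32 added to the unlogged values.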

Additional observations from a re-analysis of the deposited data

How the results depend on the processing

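No paired analysis was possible because each group has 1 array, and no replicate could be left out. Over 8 alternative settings, 107 of 120 counts and medians of junction genes stayed within 1.5 times of the main count or within 0.1 of the main median, and 13 did not. The tolerance of 0.1 is wider than the main medians themselves, so a median could change sign within it. After centring, the median went from -0.04 to 0.02 in heparin against control and from -0.01 to 0.07 in heparin against peptide. Without a filter on low values, heparin against control had 1 gene at least 2-fold higher (0 in the main setting) and 3 at least 1.5-fold higher (1), and heparin against peptide had 1 and 2 (0 and 1). These additions came from genes below the array median, such as Cdh7. With a filter at the 40th percentile heparin against control had 2 genes at least 1.5-fold higher. Genes at least 1.5-fold lower numbered 0 instead of 2 in heparin against control after quantile normalization, after centring and after adding 32 to the unlogged values. In heparin against peptide they numbered 0, 0 and 1, and Gja4 no longer passed after adding 32, which left 0 higher. Averaging all probe sets per gene, peptide against control had 0 lower instead of 1. The values behind these counts lie close to the 1.5-fold line: Cldn2 ran from -0.60 to -0.54 and Cldn6 from -0.61 to -0.52 in heparin against control. Gja4 ran from 0.62 to 0.89. Of 216 values of single genes 8 moved by over 0.1. They were values of Cdh1, Gja1 and Cldn1 on averaging probe sets, and of Gja4 after adding 32. The 216 cover only Cdh1, Cldn1, Cldn2, Cldn6, Cldn10, Ctnnbl1, Gja1, Gja4 and Jup, the measured genes with the largest differences in any comparison. A filter cannot change the difference of a single gene. For these genes the probe set with the highest control value was the one already used. Those settings repeated the main values, so the number that stayed says little about stability. No difference of a gene past 1.5-fold changed sign. Centring moved the median of all genes by at most 0.08.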
